A study of Mus musculus with 6 samples.

Results

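The 60 genes described here code for proteins that carry cells through mitosis: the kinases and cyclins that start it, the spindle checkpoint, the centromere and kinetochore, spindle motors, condensin and the cytokinesis machinery. They were chosen by name out of 21900 protein-coding genes and grouped by role into 7 sets. The rule itself uses no measured value, but the choice was made with earlier results of these data known. Their peaks were read in 6 lists from chromatin immunoprecipitation followed by sequencing (ChIP-seq) on primary neural stem cells cultured from newborn mouse cortex with EGF and bFGF. A peak was assigned to a gene when the deposited annotation named that gene as the one with the nearest transcription start site (TSS), and it was called a promoter peak when it lay within 1000 bp of that site. One gene of the set, Sgol1, appears in the lists under its current name Sgo1.

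Chd4, which drives nucleosome remodelling as the motor subunit of the NuRD complex, was the target in 4 libraries. The Ctrl cells were wild type in growth medium, the iKO cells were of mutant genotype and received 4-OH-TAM, and the siSCR and siSeh1 cells were wild type in growth medium. Seh1, a nucleoporin of the nuclear pore's Y-shaped complex, was the target in 2 libraries: Seh1 Ctrl, in wild-type cells, and Seh1-flag, in cells titled iKO but given the genotype wild type and 4-OH-TAM treatment. These names are not explained in the labels and were read as loss of Seh1 by deletion (iKO), its silencing (siSeh1) and a control for silencing (siSCR). The sources used here do not give the mutant allele or the driver of any Cre. The header name of the Seh1-flag list begins with oe_seh1, which is not explained and differs from the iKO title. Which cells these were, and whether the tagged Seh1 was overexpressed, is not settled. With 1 library in each group, differences are between single libraries, have no replicate check and carry no p-value. For Chd4 the list of Ctrl had 1154 peaks, that of siSCR 2606, that of iKO 21294 and that of siSeh1 26935. For Seh1 the list of Seh1-flag had 24961 peaks and that of Seh1 Ctrl 20833. List length and condition cannot be told apart in counts of peaks, and sequencing depth is unknown. A peak list does not show expression, so the identity of the cells could not be checked against neural stem cell markers.

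Mitotic genes are transcribed late in the cell cycle and are largely silent in resting cells, and dividing neural stem cells depend on them for each division. Many of their promoters lack a TATA box and share a pair of short elements near the TSS. One is the CCAAT box, bound by the factor NF-Y, and the other is the cell cycle genes homology region (CHR), bound by the MuvB core that is part of the repressive DREAM complex in resting cells and of the activating complexes with B-Myb and FoxM1 in dividing cells.

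Promoter sequences of 10 members with a Chd4 promoter peak are shown as examples, picked by no fixed rule. They come from RefSeq (GRCm38.p6, the assembly that mm10 names) and run 5′ to 3′ on the strand of the gene. Each covers at most 200 bases before the TSS and only bases outside annotated gene spans, so elements at the TSS itself can fall outside the stretch shown. Capitals mark CCAAT boxes (CCAAT, or ATTGG where it lies on the other strand) and CHR elements (TTTGAA or TTTAAA, or TTCAAA for the former on the other strand). The first 3 belong to genes that had a Chd4 peak already in the siSCR control: Ttk (chr9:83834489-83834650, plus strand), Cenpf (chr1:189688108-189688286, minus strand) and Cenpa (chr5:30666686-30666876, plus strand).
Ttk: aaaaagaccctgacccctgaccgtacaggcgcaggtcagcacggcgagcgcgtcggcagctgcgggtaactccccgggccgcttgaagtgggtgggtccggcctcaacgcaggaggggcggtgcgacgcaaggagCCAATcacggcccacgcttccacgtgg
Cenpf: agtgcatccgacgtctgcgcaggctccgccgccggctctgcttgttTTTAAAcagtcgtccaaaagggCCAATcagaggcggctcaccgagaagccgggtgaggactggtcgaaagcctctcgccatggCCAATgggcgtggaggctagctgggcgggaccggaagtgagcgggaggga
Cenpa: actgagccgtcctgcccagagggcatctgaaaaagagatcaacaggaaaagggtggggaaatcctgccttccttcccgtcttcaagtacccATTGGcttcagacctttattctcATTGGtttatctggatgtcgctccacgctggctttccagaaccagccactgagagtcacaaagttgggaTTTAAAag
Bub1 (chr2:127831860-127832059, minus strand) and Mki67 (chr7:135716451-135716579, minus strand) had a Chd4 peak in both iKO and siSeh1 and in neither control.
Bub1: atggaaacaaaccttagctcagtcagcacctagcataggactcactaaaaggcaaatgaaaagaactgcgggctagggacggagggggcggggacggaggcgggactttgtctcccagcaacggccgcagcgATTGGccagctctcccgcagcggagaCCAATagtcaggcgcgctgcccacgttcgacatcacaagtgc
Mki67: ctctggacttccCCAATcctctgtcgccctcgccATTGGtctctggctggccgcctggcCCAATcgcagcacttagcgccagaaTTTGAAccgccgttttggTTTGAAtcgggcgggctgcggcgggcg
Hmmr (chr11:40733465-40733637), Cdc20 (chr4:118437344-118437543), Top2a (chr11:99024200-99024389) and Ccnb2 (chr9:70421555-70421754), all on the minus strand, had a promoter peak under their own name in siSeh1 and in no other Chd4 list.
Hmmr: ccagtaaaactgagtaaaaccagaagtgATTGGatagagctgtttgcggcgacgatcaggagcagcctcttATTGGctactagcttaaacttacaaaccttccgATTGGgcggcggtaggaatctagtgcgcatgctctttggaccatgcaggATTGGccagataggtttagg
Cdc20: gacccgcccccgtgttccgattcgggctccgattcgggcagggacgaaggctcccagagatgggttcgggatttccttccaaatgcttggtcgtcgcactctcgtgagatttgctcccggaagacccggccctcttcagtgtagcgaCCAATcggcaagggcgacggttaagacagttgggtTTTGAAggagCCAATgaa
Top2a: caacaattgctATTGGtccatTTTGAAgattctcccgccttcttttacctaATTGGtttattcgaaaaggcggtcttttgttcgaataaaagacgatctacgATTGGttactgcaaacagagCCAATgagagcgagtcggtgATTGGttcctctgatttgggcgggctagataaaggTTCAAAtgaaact
Ccnb2: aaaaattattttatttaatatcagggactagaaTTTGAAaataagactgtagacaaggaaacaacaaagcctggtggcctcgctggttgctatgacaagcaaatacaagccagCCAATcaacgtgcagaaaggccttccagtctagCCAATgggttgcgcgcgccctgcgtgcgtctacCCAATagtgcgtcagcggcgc
Mad2l1 (chr6:66535021-66535220, plus strand) had a promoter peak in iKO and is shown as a promoter with neither element in this stretch.
Mad2l1: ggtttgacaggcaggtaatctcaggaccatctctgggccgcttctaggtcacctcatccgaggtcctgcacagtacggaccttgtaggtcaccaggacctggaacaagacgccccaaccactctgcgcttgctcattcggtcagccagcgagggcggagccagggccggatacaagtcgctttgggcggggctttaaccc
Top2a has 5 CCAAT boxes in the stretch shown and Hmmr has 4. In the stretches of Ttk, Bub1 and Hmmr there is no CHR element, so not all examples hold both elements.

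In the lists as a whole, Chd4 promoter peaks at mitotic genes were not listed in Ctrl, few in siSCR and many in iKO and siSeh1. No member of 60 had a Chd4 promoter peak in Ctrl, which allows a share of up to 5% by a count of 3 (0.0183% of all protein-coding genes had one). In siSCR 6 members had one, which is 10% (exact Clopper-Pearson 95% interval 3.76 to 20.5%) beside 1.63% of all protein-coding genes. In iKO the count was 13 members, or 21.7% (12.1 to 34.2%), beside 5.18%. In siSeh1 it was 25 members, or 41.7% (29.1 to 55.1%), beside 11.8%. In the lists of Seh1 itself, 1 member had a promoter peak in Seh1-flag (1.67%, beside 1.33%) and 1 in Seh1 Ctrl (1.67%, beside 1.02%), shares near those of all genes. These intervals cover counting error only.

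**Figure D1:**
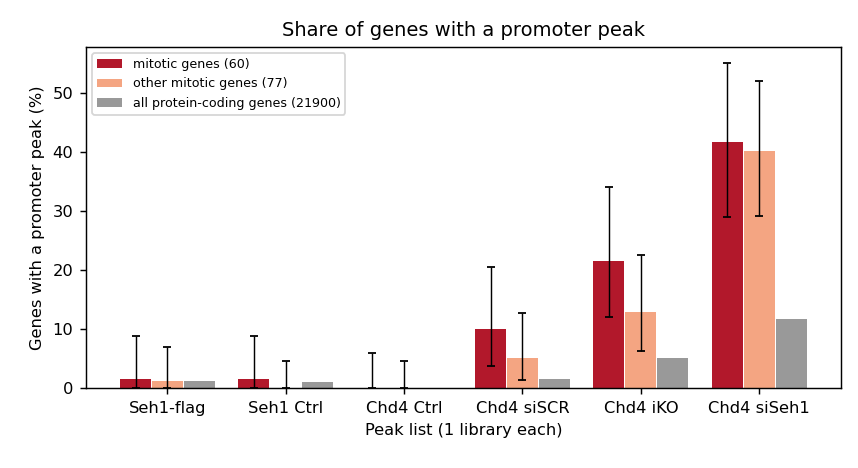
Bars give the share of genes with a promoter peak (%) in each of the 6 lists for the 60 mitotic genes, for 77 further mitotic genes and for all 21900 protein-coding genes; error bars are exact 95% intervals over genes and cover counting error only. In siSCR, iKO and siSeh1 the bar of the 60 genes stands at 10, 21.7 and 41.7%, above the bars of all genes at 1.63, 5.18 and 11.8%.

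Set against their own controls, 13 members had a promoter peak in iKO and none in Ctrl (5.18% of all protein-coding genes did), and no member had the reverse (0.0183% did). The Ctrl list had a promoter peak at only 4 protein-coding genes. The genes added in iKO are therefore all the genes with a promoter peak in iKO. In siSeh1 19 members, or 31.7% (20.3 to 45.0%), had a peak that siSCR lacked (10.5% of all genes did), and none had the reverse (0.297% did). Both comparisons added the peak at 7 members, or 11.7% (2.17% of all genes): Ccnf, Cdc25c, Bora, Bub1, Cenpe, Mis12 and Mki67. Mis12 is among them only by name, since siSCR had a peak near its start that was named for Derl2. Counted by start site whatever gene is named, 8 members were added in both (13.3%, beside 2.53% of all genes), without Mis12. The 2 comparisons share no library, but the one with Ctrl adds nothing to the presence of a peak in iKO. With every list that has scores cut to the 1154 peaks of highest score, the length of the Ctrl list, 8 members had a peak in iKO (13.3%, beside 2.04% of all genes), 6 in siSCR (10%, beside 1.37%) and 12 in siSeh1 (20%, beside 4.04%). At that length the added members numbered 8 in iKO and 8 in siSeh1 (13.3%, beside 3% of all genes). Both added 3 (5%, beside 0.795%), namely Cdc25c, Bub1 and, only by name, Mis12. Sgo1 and Cenpf then had a peak in siSCR and none in siSeh1 (3.33%, beside 0.333%).

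The 4 members Aurka, Ttk, Sgo1 and Cenpf had a promoter peak in siSCR, iKO and siSeh1 (1.01% of all protein-coding genes did). All 6 members with a peak in siSCR had one in siSeh1 as well, and over all protein-coding genes 81.8% of those in siSCR did. Of the 13 members in iKO, 11 were also in siSeh1 (3.19% of all protein-coding genes were in both). They are 84.6% of the members in iKO (beside 61.5% over all genes in iKO) and 44% of the 25 members in siSeh1 (26.9% over all genes in siSeh1). Any of the 4 Chd4 lists had a promoter peak at 27 members, or 45% (14.1% of all genes), so 33 members had none in any of the 6 lists. Of these 33, 22 had a peak elsewhere and 11 had no peak named for them at all: Ccna2, Cdc25b, Foxm1, Espl1, Cenpn, Cdca8, Nusap1, Smc4, Ncapg, Kif23 and Racgap1. Foxm1, Cdca8 and Nusap1 did have Chd4 peaks near a start or gene end that were named for another gene, as described below. Matching counts over all protein-coding genes were not made.

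**Figure D2:**
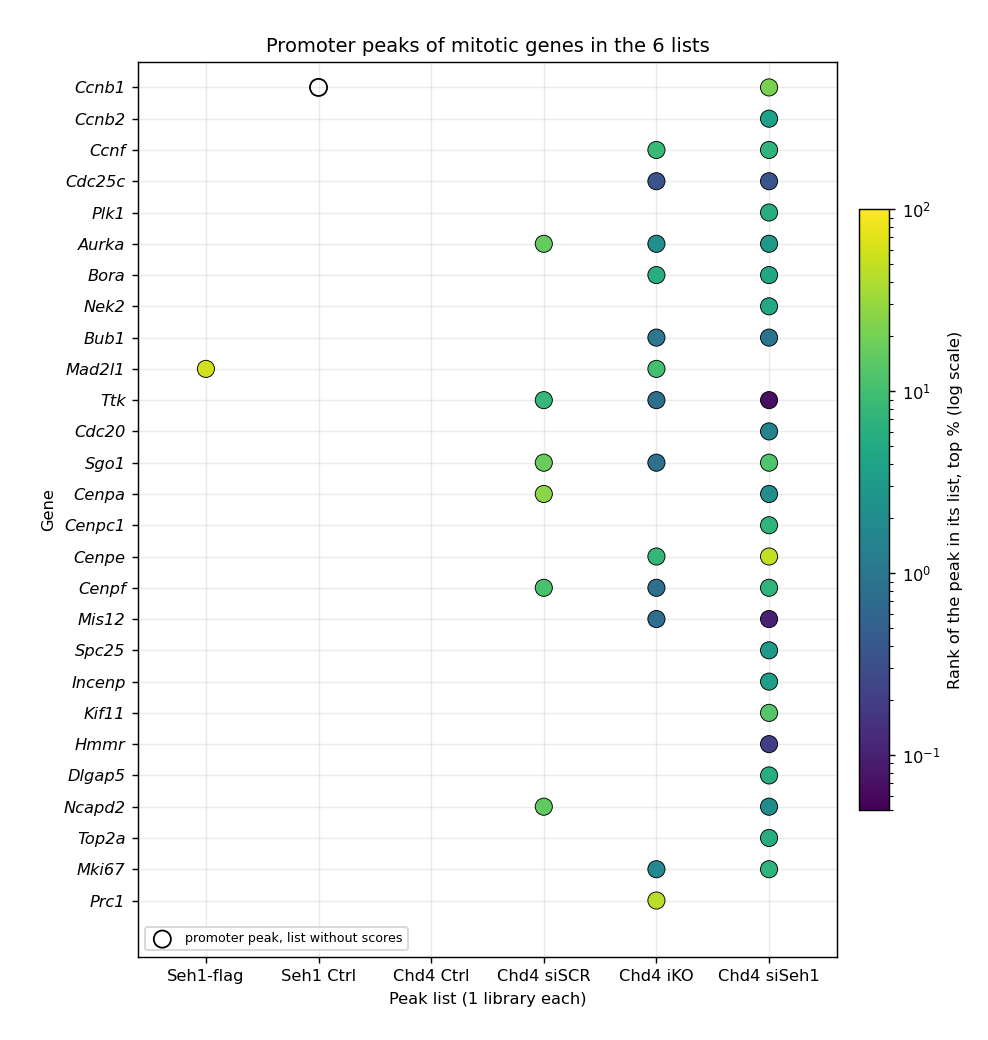
Each filled circle marks a promoter peak of 1 of the 27 members that had one in any list (rows) in 1 of the 6 lists (columns), coloured by the rank of the peak in its list by deposited score (top %, log scale); the open circle is in Seh1 Ctrl, whose scores are all 0. The columns fill from 6 members in siSCR to 13 in iKO and 25 in siSeh1, and Chd4 Ctrl is empty.

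Among the 12 genes of mitotic entry, siSeh1 had a promoter peak at 8, iKO at 4 and siSCR at 1. Over all protein-coding genes the shares were 11.8% in siSeh1, 5.18% in iKO and 1.63% in siSCR. The counts of each set, here and below, stand beside these shares. The sets are small, and their differences from these shares were not tested. Ranks below count from the peak of highest deposited score in a list, and distances run from the TSS. Cdc25c, the phosphatase that activates the mitotic cyclin-dependent kinase, had a peak at chr18:34751639 in iKO (rank 79, 106 bp upstream) and at chr18:34751677 in siSeh1 (rank 99, 144 bp upstream). Aurka, a kinase of centrosome maturation, had peaks in siSCR at rank 421 (21 bp upstream), in iKO at rank 461 (4 bp downstream) and in siSeh1 at rank 794 (69 bp upstream). Its start lies 433 bp from that of Cstf1 on the other strand. Bora, the protein through which Aurka activates Plk1, ranked 1250 in iKO and 1289 in siSeh1, with positions 4 bp apart on chromosome 14. Ccnf, the cyclin of a ubiquitin ligase, ranked 1785 in iKO and 1863 in siSeh1, 37 bp apart. These 4 are the entry genes present in iKO, and all 4 were in siSeh1 too.

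The B-type cyclins, Plk1 and Nek2 had a Chd4 promoter peak in siSeh1 and in no other Chd4 list. Ccnb2 ranked 985 there (chr9:70421616, 62 bp upstream), Nek2, a centrosome kinase, ranked 1289 (32 bp upstream), Plk1, the kinase that acts from mitotic entry to exit, ranked 1532 (19 bp upstream) and Ccnb1 ranked 5839 (141 bp upstream). Ccnb1 was also the 1 member with a promoter peak in Seh1 Ctrl, at chr13:100785772-100786011, 595 bp downstream of the TSS in exon 2 of 9. The remaining entry genes, Cdk1, Ccna2, Cdc25b and Foxm1, had no promoter peak under their own names.

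Of 8 genes of the spindle checkpoint and anaphase control, 4 had a promoter peak in iKO, 4 in siSeh1 and 2 in siSCR. Ttk, the kinase Mps1 that starts checkpoint signalling at unattached kinetochores, had one in each of these lists: at chr9:83834625 in siSCR (score 6.61, rank 204), chr9:83834629 in iKO (score 10.6, rank 165) and chr9:83834646 in siSeh1 (score 30.4, rank 18). Those positions fall 43 to 64 bp upstream of the TSS. The siSeh1 rank of 18 out of 26935 was ahead of the other 24 members in that list. Bub1, a checkpoint kinase and scaffold, ranked 216 in iKO (60 bp upstream) and 253 in siSeh1 (6 bp upstream) and was absent from both controls. Sgo1, which protects centromeric cohesin, ranked 439 in siSCR, 177 in iKO and 3343 in siSeh1, all within 29 bp of the TSS.

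Cdc20, the activator of the anaphase promoting complex and target of the checkpoint, had a peak in siSeh1 at rank 403 (chr4:118437386, 43 bp upstream) and in no other list. Mad2l1, the checkpoint protein that captures Cdc20, was in iKO at rank 2189 (49 bp downstream) but not in siSeh1. It was also the 1 member with a promoter peak in Seh1-flag, 524 bp upstream, at rank 14410 of 24961. The Seh1-flag and Chd4 positions at this gene, chr6:66534697 and chr6:66535270, lie on opposite sides of the TSS. Bub1b, Bub3 and Espl1 had no promoter peak.

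Centromere and kinetochore genes numbered 13, of which 6 had a promoter peak in siSeh1, 3 in iKO and 2 in siSCR. Mis12, of the kinetochore complex that links centromeric chromatin to the microtubule-binding Ndc80 complex, ranked 159 in iKO (chr11:71019527, 84 bp upstream) and 27 in siSeh1 (chr11:71019481, 130 bp upstream). It had no peak by name in siSCR, but siSCR held a peak of rank 25 at chr11:71019453 that the annotation gave to Derl2 on the other strand. That peak lay 158 bp from the Mis12 start and 150 bp from that of Derl2. Mis12 is therefore counted among the genes with an added peak in siSeh1 only by name.

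Cenpf, a large kinetochore protein that recruits dynein, ranked 284 in siSCR, 167 in iKO and 1894 in siSeh1, between 91 and 138 bp upstream. Cenpa, the histone H3 variant that marks centromeres, ranked 689 in siSCR (50 bp upstream) and 564 in siSeh1 (35 bp upstream), and iKO had no promoter peak there. Cenpe, a kinesin that moves chromosomes to the spindle equator, ranked 1664 in iKO and 12974 in siSeh1, low in the latter list. Spc25, of the Ndc80 complex, and Cenpc1, which binds Cenpa nucleosomes, were in siSeh1 at ranks 794 and 1905 and in no other Chd4 list at their promoters. Cenpk, Cenpl, Cenpn, Cenpt, Ndc80, Nuf2 and Spc24 had no promoter peak by name. Within the Ndc80 complex the annotation thus placed a Chd4 promoter peak at 1 of the 4 genes (14.1% of all protein-coding genes had one in any Chd4 list). That count depends on the window, since Spc24 had a siSeh1 peak 1049 bp downstream of its TSS (rank 10655), just outside it.

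The remaining 4 sets held 2 of the 13 members in iKO and 1 of the 6 in siSCR. None of the 9 genes for spindle motors and assembly factors had one in iKO or siSCR by name, and 3 did in siSeh1. Hmmr, a spindle assembly factor, ranked 52 there (chr11:40733524, 87 bp upstream). As at Mis12, siSCR (chr11:40733571, rank 83) and iKO (chr11:40733573, rank 12096) held peaks in the same interval that were named for Nudcd2, whose start lies 224 bp away on the other strand. Kif11, the kinesin that separates the spindle poles, ranked 3562 (49 bp upstream), and Dlgap5, a factor of kinetochore fibres, ranked 1556 with a position 219 bp downstream in exon 1 of 19. That was the member promoter peak of siSeh1 farthest from its TSS. Of the 4 genes of the chromosomal passenger complex, the scaffold Incenp had a peak in siSeh1 (rank 925, 180 bp upstream), while Aurkb, Birc5 and Cdca8 had none by name.

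Among 7 genes of condensin and chromosome structure, Ncapd2, a condensin subunit, ranked 411 in siSCR (137 bp upstream) and 522 in siSeh1 (180 bp upstream). Mki67, the proliferation marker that coats mitotic chromosomes, ranked 384 in iKO (121 bp upstream) and 1905 in siSeh1 (173 bp upstream). Top2a, the topoisomerase that untangles sister DNA, ranked 1556 in siSeh1 (34 bp upstream). Smc2, Smc4, Ncapg and Ncaph had no promoter peak. In the 7 genes of the central spindle and cytokinesis, Prc1, which bundles midzone microtubules, was the 1 gene with a promoter peak, in iKO at rank 9440 (59 bp downstream), and siSeh1 had none in this set by name.

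Naming by nearest TSS also left out peaks at the start of 5 other members. Peaks named for Rhno1 lay near the annotated end of Foxm1 that faces it, at chr6:128362845 in iKO (rank 549) and chr6:128362896 in siSeh1 (rank 1082). The strand of Foxm1 was not in the tables used here. Peaks named for 9930104L06Rik lay 69 bp from the start of Cdca8 in iKO (rank 117) and 89 bp in siSeh1 (rank 942). The peaks at the Cenpk start, named for Ppwd1, ranked 644 in siSCR and 794 in siSeh1. Nusap1 had 1 in iKO named for Oip5 (rank 1580), and Ect2 had 1 in siSeh1 named for 1700125G22Rik (rank 15987). Counted by start site whatever the name, 9 members had a Chd4 promoter peak in siSCR (15%, beside 1.97% of all protein-coding genes counted in the same way), 17 in iKO (28.3%, beside 5.91%) and 29 in siSeh1 (48.3%, beside 13.5%). By that count 20 had one in siSeh1 and not in siSCR (33.3%, beside 11.8%), and 6 had one in all of siSCR, iKO and siSeh1 (10%, beside 1.3%). Mis12 and Hmmr join Aurka, Ttk, Sgo1 and Cenpf in that last group.

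By deposited score, the promoter peaks of members ranked ahead of those of other genes in iKO and siSeh1 but not in siSCR. The deposited score has no stated scale, so ranks are compared within a list only. In iKO the median rank of the 13 members was in the top 1.80% of the list, beside 10.1% for all protein-coding genes with a promoter peak. There 11 of the 13 lay in the first 10% of the list (84.6%, beside 49.8%), and 5 were among the first 100 promoter genes (Cdc25c, Mis12, Ttk, Cenpf and Sgo1). In siSeh1 the median of the 25 members was in the top 4.79%, beside 9.39%, with 21 of 25 in the first 10% (84%, beside 50.9%) and 4 among the first 100 promoter genes (Ttk, Mis12, Hmmr and Cdc25c). In siSCR the medians were 16.0% and 15.8%. Among promoter genes alone the members' median stood at the top 18.5% in iKO, 50.8% in siSCR and 37.1% in siSeh1. The spread within each list was wide: member scores ran from 3.52 (Prc1) to 13.6 (Cdc25c) in iKO and from 3.42 (Cenpe) to 30.4 (Ttk) in siSeh1.

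**Figure D3:**
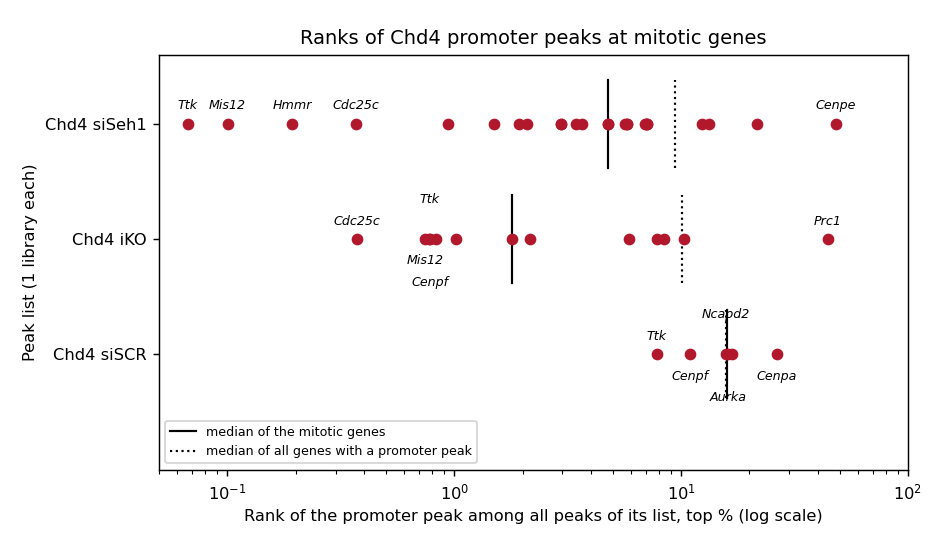
Each point is the promoter peak of 1 mitotic gene placed by its rank among all peaks of its list (top %, log scale; left is higher), in siSCR, iKO and siSeh1 (1 library each); the first 4 and the last gene of each list are named. Solid lines, the medians of the mitotic genes (16.0, 1.80 and 4.79%), lie left of the dotted medians of all genes with a promoter peak in iKO (10.1%) and siSeh1 (9.39%) and next to it in siSCR (15.8%).

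Chd4 promoter peaks at mitotic genes lay close to the TSS, mostly just upstream. In siSeh1 24 of 25 were within 200 bp upstream of it (96%, beside 55.0% of all protein-coding genes with a promoter peak), and the median was 62 bp upstream. By the same measure 9 of 13 were in iKO (69.2%, beside 52.8%), where the other 4 lay downstream, and 5 of 6 in siSCR (83.3%, beside 65.6%), with medians 60 and 57 bp upstream. On either side of the TSS, 200 bp took in all 13 in iKO (beside 69.4% over all genes), all 6 in siSCR (beside 74.0%) and 24 of 25 in siSeh1 (96%, beside 71.5%). The medians over all genes were 64, 92.5 and 65 bp upstream in iKO, siSCR and siSeh1, so the members differed less in the median than in the spread. Where both iKO and siSeh1 had a member's peak, the positions were 3 to 86 bp apart (median 46 bp, 11 genes). Over the 697 protein-coding genes compared in the same way, the median was 52 bp and 77.3% were within 100 bp. In siSCR and siSeh1 the 6 shared members had positions 9 to 48 bp apart (median 26 bp, beside 40 bp over 293 genes).

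RefSeq promoter sequences of 300 bases, from 250 before the TSS, were matched for 49 of the 60 members, 23 of them with a Chd4 promoter peak by name. A CCAAT box (CCAAT on either strand) was in 38 of 49 (77.6%, interval 63.4 to 88.2%), beside 39.0% of 17492 protein-coding promoters. Of the 23 with a Chd4 peak 22 had one (95.7%, 78.1 to 99.9%), Mad2l1 being the exception, and of the 26 without 16 did (61.5%, 40.6 to 79.8%). Here and below, with and without a Chd4 peak go by name. The 26 include Cdca8, Cenpk, Nusap1 and Ect2, whose starts had Chd4 peaks named for another gene. Over the 2555 protein-coding promoters with a Chd4 peak the share was 60.9%, and over those without it was 35.3%. Promoters with more than 1 CCAAT box made up 69.6% of the 23, 26.9% of the 26, 35.1% of all promoters with a Chd4 peak and 13.5% of all promoters. On the strand of the gene alone CCAAT was in 78.3% of the 23, 26.9% of the 26, 37.4% of all promoters with a Chd4 peak and 22.5% of all.

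The CHR element (TTTGAA or TTTAAA on either strand; TTTAAA reads the same on both) was in similar shares of members with and without a Chd4 peak. It was in 38 of 49 members (77.6%), beside 25.5% of all promoters, at 78.3% of members with a Chd4 peak and 76.9% of those without. Over all protein-coding promoters with a Chd4 peak it was in 18.3%, below the 26.7% of those without. CCAAT and CHR occurred together in 65.3% of members and 10.3% of all promoters. GGGCGG, the core of the GC box, was in 87.0% of members with a Chd4 peak, 69.2% without, 68.6% of all promoters with a Chd4 peak and 46.3% of all promoters. More than 1 match was in 30.4% of members with a peak, 38.5% of those without and 44.9% of all promoters with a Chd4 peak. The E2F forms TTTGGCGC and TTTCCCGC, on either strand, were in 4 of 49 members (8.16%, beside 2.09%). Matches of different motifs were counted separately and may share bases. Median GC content was 59% in members with a peak, 58.5% in those without, 62.3% in all promoters with a Chd4 peak and 56.3% in all promoters.

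In members with a Chd4 peak the CCAAT matches had a median position 67.5 bp upstream of the TSS (50 matches), near the peaks themselves, and the CHR matches 17 bp upstream (27 matches). In members without a Chd4 peak the medians were 54 bp (27 matches) and 15 bp (29 matches) upstream. These positions were therefore shared by members with and without a peak. Over all promoters the medians were 89 and 136 bp. The siSCR peak of Ttk lay 1 bp from the centre of the nearest CCAAT box, its iKO peak 3 bp and its siSeh1 peak 17 bp. For Mis12 the distances were 3 bp in iKO and 8 bp in siSeh1, and in siSeh1 Spc25 was at 4 bp, Kif11 at 6 bp, Hmmr at 7 bp and Cdc20 at 8 bp. Others lay farther, among them Prc1 at 94 bp and Ccnf at 75 bp in iKO. In siSeh1 Ccnb1 was at 44 bp, Cenpa at 49 bp and Cenpc1 at 195 bp. Members with a peak more often had more than 1 box than all promoters with a peak. More boxes tend to shorten the distance to the nearest, and this was not adjusted for. The median distance was 17 bp over 21 members in siSeh1 (beside 23 bp over all promoters with a box and a peak in the window), 18 bp over 9 in iKO (beside 21 bp) and 6.5 bp over 6 in siSCR (beside 20 bp). Within 30 bp lay 71.4% of the members in siSeh1 (beside 59.7%), 66.7% in iKO (beside 59.4%) and 83.3%, or 5 of 6, in siSCR (beside 68.2%). A match is a run of letters and does not show that a factor was bound.

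**Figure D4:**
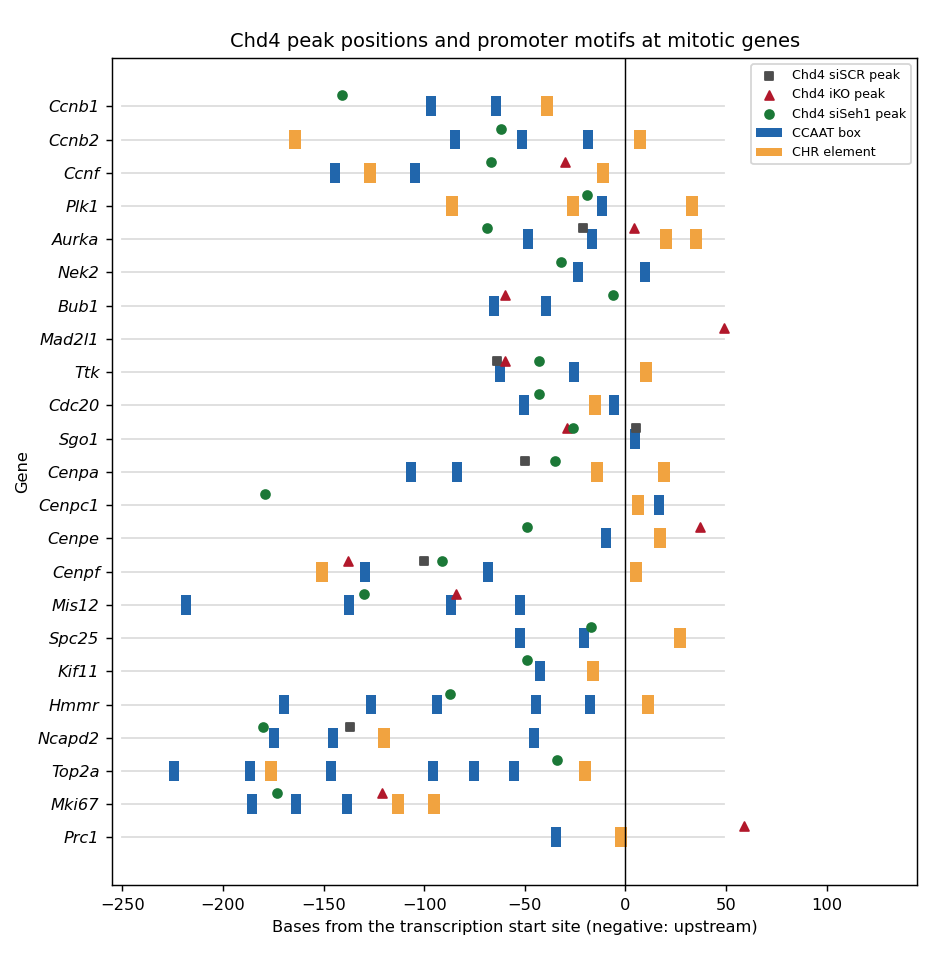
Rows are the 23 members with a Chd4 promoter peak and a RefSeq promoter entry, and the horizontal axis gives bases from the TSS (negative is upstream). Blue and orange blocks are CCAAT boxes and CHR elements on either strand, and symbols are the Chd4 peak positions in siSCR, iKO and siSeh1, which lie mostly between the TSS and 200 bp upstream, among the blue blocks.

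Away from promoters, member peaks were scattered and often far from the gene. The 1 member peak of the Chd4 Ctrl list lay 3240 bp upstream of Ccnf (chr17:24254649) in a simple repeat. Distal member peaks numbered 30 in iKO, 3 in siSCR, 45 in siSeh1, 52 in Seh1-flag and 30 in Seh1 Ctrl. In iKO 25 of the 30, and in siSeh1 33 of the 45, were more than 10 kb from the TSS. Repeats held 46.7% of the 30 in iKO and 48.9% of the 45 in siSeh1. Of all peaks of those lists beyond 1000 bp from a TSS, they held 51.1% and 46.3%. In Seh1-flag the share was 69.2%, beside 57.5%. Beyond 1000 bp from the TSS, exon peaks of members were listed in siSeh1 and in none of the other 5 lists, in Mki67 (exon 12 of 14), Nek2 (exon 8 of 8) and Ttk (exon 8 of 21), at ranks 8027, 13408 and 19665. A Seh1-flag and a Chd4 siSCR peak assigned to Cenpc1 lay 70 bp apart in a LINE repeat (chr5:85265322 and chr5:85265252). The siSCR peak is 800331 bp from the Cenpc1 TSS. Of the 53 member peaks in Seh1-flag and the 31 in Seh1 Ctrl, 1 each was at a promoter.

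A second list of 77 mitotic genes outside the 60 showed a like order of the lists, as did all protein-coding genes. It too was chosen with earlier results of these data known. A Chd4 promoter peak was at none of the 77 in Ctrl (beside 0.0183% of all protein-coding genes) and at 4 in siSCR (5.19%, beside 1.63%). In iKO 10 had one (13.0%, beside 5.18%), and in siSeh1 31 did (40.3%, 29.2 to 52.1%, beside 11.8%). The counts by group below stand beside these same shares of all genes. Of 18 genes of the anaphase promoting complex and its cofactors 8 had one in siSeh1 and 3 in iKO, led by Ube2c, its ubiquitin-conjugating enzyme (rank 212 in iKO, 158 in siSeh1, 689 in siSCR), then Anapc5 and Ube2s. Of 28 further kinetochore genes 11 had one in siSeh1 and 3 in iKO, led by Ska2, which couples kinetochores to shrinking microtubules (rank 90 in iKO, 32 in siSeh1, 52 in siSCR), then Cenpx and Zwint. Cohesin and its regulators had 5 of 14 in siSeh1 and 2 in iKO, with Smc3, Wapl and Stag1 first, and of 3 other condensin genes Ncapg2 and Ncapd3 had one in siSeh1. Among 14 genes of DREAM, MuvB and NF-Y, which act on mitotic promoters, 5 had one in siSeh1 and 2 in iKO. Nfya, a subunit of NF-Y, ranked 64 in iKO, 65 in siSeh1 and 209 in siSCR, and Nfyc and Rbbp4 followed.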

How the data were processed

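Peak lists of 6 ChIP-seq libraries (1 library per group) were read as the authors deposited them. Annotation used HOMER and mouse build mm10, per the file headers. The submitters' processing notes name Bowtie2 and HOMER without versions, and name human builds. No source used here gives the peak caller, its threshold, an input or pooling. The deposited peak score is the authors' and its scale is not stated. Peaks are single scored positions in 5 lists. In Seh1 Ctrl they are intervals (240 to 1296 bp) with scores of 0, so it has no ranks. Depth per library is unknown. The deposited distance to the TSS, in bp, decided which peaks were promoter peaks.

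Counts, shares with exact Clopper-Pearson 95% intervals, ranks, gaps and motif matches were computed with Python 3.11.15, pandas 2.3.3, numpy 2.4.6 and scipy 1.17.1, and figures with matplotlib 3.10.9. The promoter counting code was tested on simulated data, and the motif search was not. Genes, start sites and promoter sequences came from RefSeq (GRCm38.p6), matched by gene identifier. For counts by start site, genes outside its promoter table took the start from the deposited distances or, with no peak of their own, both gene ends. Every member with a promoter peak is named, and the 3 genes of best mean rank in each group of the second list. That list had 79 names for 77 symbols. Members, roles, lists and motifs were chosen with earlier results of these data known. Alternatives changed the promoter window, the annotation class, the list length, the minimum score and the naming. The comparison of iKO with siSCR and the count without Sgo1 were added after seeing the data. No test between conditions was possible.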

Additional observations from a re-analysis of the deposited data

How the results depend on the processing

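Of 100 counts of members under 9 alternative settings, 76 stayed within 1.5 times the reported count and 24 did not. Not all of these counts could move freely. Chd4 Ctrl had no member promoter peak except within 5000 bp. In the other settings the members added in iKO against Ctrl therefore repeat the iKO count, and none could be lost. The 76 is thus not a measure of how stable the results are. The Seh1 counts, which start from 1 member each, moved with the window. They were 0 and 0 (Seh1-flag and Seh1 Ctrl) within 500 bp. Within 2000 bp they were 4 (6.67%, beside 3.33% of all protein-coding genes) and 2 (3.33%, beside 2.32%). Within 5000 bp they were 6 (10%, beside 9.07%) and 4 (6.67%, beside 5.95%), shares near those of all genes. Chd4 Ctrl reached 1 within 5000 bp (1.67%, beside 0.164%). By the promoter class of the annotation Seh1 Ctrl had 0. With lists of 1154 peaks, promoter counts were 0 in Seh1-flag, 8 in iKO and 12 in siSeh1, members with any peak were 4, 11 and 12, those added numbered 8 in iKO, 8 in siSeh1 and 3 in both, and 2 were lost in siSeh1. Fewer peaks were kept by construction in that setting. With a minimum score of 5, promoter counts were 0 in Seh1-flag (beside 0.589% of all protein-coding genes). Members with any peak were then 14 in Seh1-flag, 0 in Chd4 Ctrl, 13 in iKO and 22 in siSeh1. At that score 1 member (Sgo1) was lost in siSeh1 (1.67%, beside 0.114%). Shares of all genes with any peak were not made. Whether scores share a scale between lists is not known. Taking siSCR as the control of iKO, chosen after seeing the data, left 9 members with an added peak in iKO (15%, beside 4.10% of all protein-coding genes). No paired analysis was possible because each group has 1 library. Unknown depth and list lengths from 1154 to 26935 peaks limit every comparison of counts between lists.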
